A study of Mus musculus with 2 samples.

Results

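Nfe2l2, which encodes the transcription factor Nrf2, 7 of its classical target genes (Nqo1, Gclc, Gclm, Txnrd1, Srxn1, Prdx1 and Gsr) and the metallothionein genes Mt1 and Mt2 were compared between a control kidney library and a kidney library labelled as a conditional knockout (CKO) of Regnase-2. These 10 genes, of 20002 in the expression table, were chosen by their symbols for their place in the defence against oxidants and metals. They and the gene lists below were chosen with earlier results of these data known. In unstressed cells the adaptor Keap1 holds Nrf2 in a ubiquitin ligase complex that leads to its breakdown, so Nrf2 activity is set largely at the protein level. When electrophiles or oxidants modify Keap1, Nrf2 accumulates, pairs with small Maf proteins and binds antioxidant response elements at genes for glutathione synthesis, thioredoxin reduction and quinone detoxification, for which Bach1 competes. Metallothioneins are small cysteine-rich proteins that bind zinc, copper and cadmium; the zinc sensor Mtf1 drives their genes through metal response elements, and in the kidney they are known from proximal tubule cells exposed to metals.

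The study asked what the loss of Regnase-2, an RNase of the Zc3h12 family, does in the renal proximal tubule. There were 2 bulk RNA-seq libraries of whole kidney from mice on standard chow, 1 named Control and 1 named CKO, with no further treatment in the labels. The labels call the second group a conditional knockout specific to proximal tubules, whereas the study's methods describe C57BL/6J mice given adeno-associated virus 9 with an shRNA against Regnase-2 through the tail vein, a vector described there as preferring proximal tubule cells. The control mice received the same type of virus, described in one place as empty and in another as carrying a control shRNA. Injection was at 11 weeks of age, and harvest is placed at 14 weeks in the sequencing methods and at 16 weeks in the vector methods. Whether a library came from 1 mouse or from several is not given in the sources used here.

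The values were deposited as normalized counts, in whole numbers that never fall below 35 (control) and 51 (CKO), so 34 and 50 were subtracted from every gene and the remainder was taken as reads, an inference from the columns. The depth after this step was 38851231 control reads and 43588721 CKO reads. The CKO reads were then multiplied by 0.667, the median over all genes of control over CKO reads, and log2 ratios were taken with a pseudocount of 1. Of the 20002 genes, 17469 reached 10 scaled reads in at least 1 library and are the background below, and 10 of the 10 genes of interest passed this filter. With 1 library per group, the differences have no replicate check. Each 95% Clopper-Pearson interval was computed from the CKO share of the summed reads and covers counting error only, as far as the remainders are reads.

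The targeted gene was read first. For Zc3h12b, which encodes Regnase-2, 47 control and 59 CKO reads gave a log2 ratio of -0.25, with an interval from -0.83 to 0.33. The ratio turned to 0.16 with equal library totals, to 0.42 with the values as deposited and to 0.50 with the median of the proximal tubule markers set to 0. A difference was not detectable at this depth, so the reads of the target gave no check of the labels. The study reports lower Regnase-2 by immunofluorescence in such mice, a protein measure that these reads do not address. The second library is called by its label throughout. Havcr1, which encodes the tubular injury marker Kim-1, had a log2 ratio of 3.12 with an interval from 3.04 to 3.19.

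Among the 10 genes, Mt2 was the 1 gene past 2-fold higher in the CKO-labelled library, while 13.4% of the 17469 background genes were at least 2-fold higher. The number at least 2-fold lower was 0 of 10, beside 5.35% of the background genes. The share of members past 2-fold was thus near the background in both directions. In bulk tissue, fewer cells of a type and less RNA per cell cannot be told apart. The log2 ratios of the 10 genes ran from -0.63 for Gclm to 1.09 for Mt2, with a median of -0.10 against 0.022 for the background genes. Of the 10, 6 lay below 0, beside 48.3% of background genes. At 1.5-fold, 1 member (Mt2) was higher and 1 (Gclm) lower, beside 21.8% and 13.9% of background genes, and at 4-fold no member passed in either direction, beside 4.29% and 0.95%. These genes are well expressed, and the 6417 genes that reached 1000 scaled reads in a library, a set chosen after the values were seen, had a median log2 ratio of -0.16, with 65.9% below 0.

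**Figure D1:**
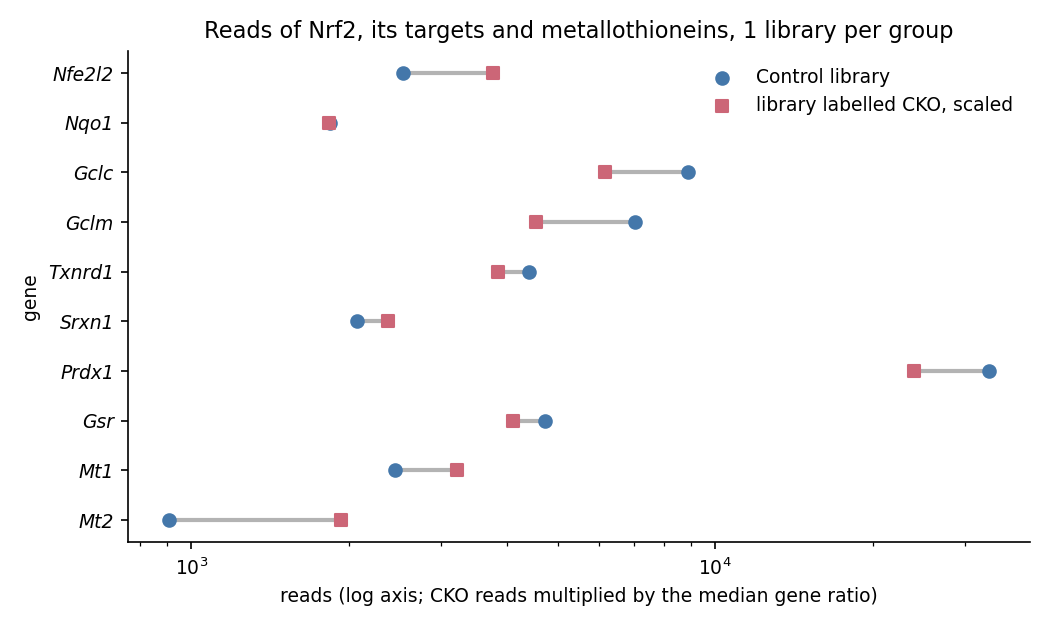
Reads of each gene in the control library (circles) and scaled reads in the CKO-labelled library (squares), on a log axis. The squares lie right of the circles for Nfe2l2, Srxn1, Mt1 and Mt2, most widely for Mt2 (909 and 1930), nearly on them for Nqo1, and left of them for Gclc, Gclm, Txnrd1, Prdx1 and Gsr; with equal totals Nqo1, Txnrd1 and Gsr would be higher in the CKO-labelled library.

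Where the small ratios lie relative to 0 was set by the scaling. With equal library totals, every log2 ratio of a well-read gene moved up by 0.42, and the median of the background genes went from 0.022 to 0.44. The lower quartile of the background genes went from -0.33 to 0.085. Of the 10 genes, 3 were then below 0 (Gclm at -0.21, Gclc at -0.11 and Prdx1 at -0.05), and Gsr, Txnrd1 and Nqo1 had turned to 0.22, 0.22 and 0.41. The order of the 10 genes does not depend on the factor, and Mt2, Nfe2l2, Mt1 and Srxn1 were above 0 under each of the alternatives run. Relative to the background median, 6 of the 10 genes were lower under either scaling: Gclm, Gclc, Prdx1, Gsr, Txnrd1 and, by less than its counting error, Nqo1.

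**Figure D2:**
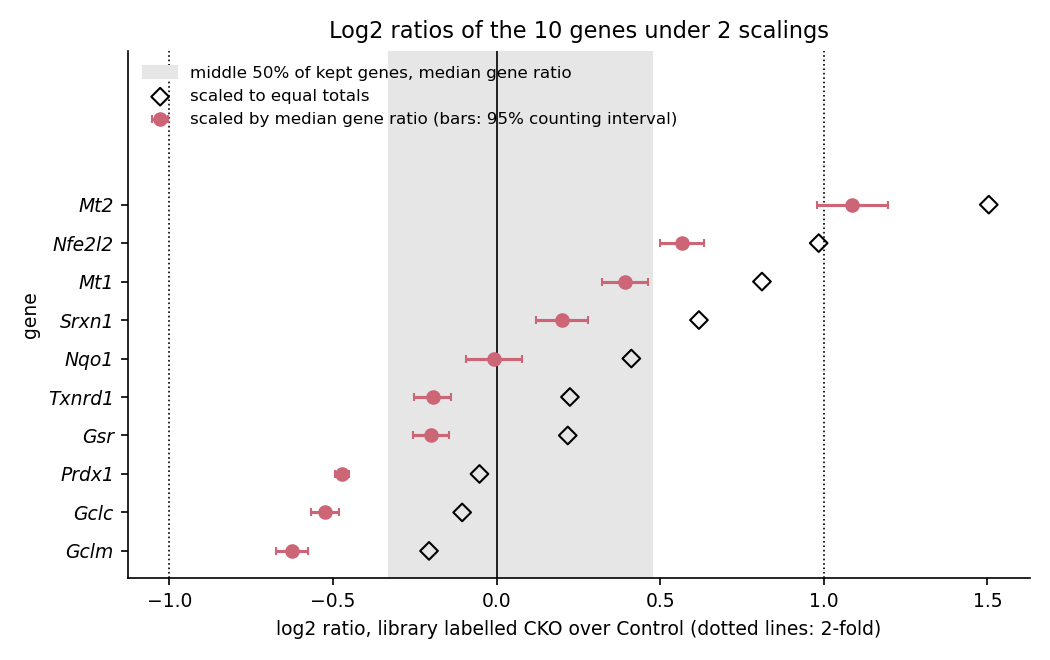
Log2 ratio of the CKO-labelled library over the control library for the 10 genes, scaled by the median gene ratio (filled circles, bars for the 95% counting interval) and to equal totals (open diamonds); the grey band holds the middle of the background genes, from -0.33 to 0.48, under the first scaling. Mt2 is the 1 filled circle past a dotted 2-fold line, and its bar, from 0.98 to 1.20, crosses that line; Nqo1, Txnrd1 and Gsr change side of 0 between the scalings.

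Nfe2l2 (Entrez Gene 18024; chr2:75675513-75704641, minus strand, in the GENCODE M21 annotation of GRCm38) had 2540 control reads and 5639 reads in the CKO-labelled library, or 3759 after scaling. The transcript was 1.48-fold higher, with an interval of 1.41 to 1.55, and its log2 ratio of 0.57 exceeded that of 77.8% of the background genes. With equal totals the Nfe2l2 ratio was 0.98. It passed 2-fold with the values as deposited (1.14) and with the median of the proximal tubule markers set to 0 (1.33). Keap1, the repressor that targets Nrf2 for breakdown, had 1722 and 2210 reads, for a log2 ratio of -0.22, which turned to 0.19 with equal totals; the antisense transcript Gm16754, which overlaps it, was not listed. Bach1, the repressor that occupies the same elements, had 1261 and 1878 reads, for a log2 ratio of -0.01, with an interval from -0.11 to 0.09. With equal totals the Bach1 ratio was 0.41. A ratio of reads between 2 genes of the same library needs no scaling, and the pairs given here were chosen after the values were seen. The ratio of Nfe2l2 to Keap1 reads was 1.48 (1.39 to 1.57) in the control library and 2.55 (2.43 to 2.68) in the CKO-labelled library. Against Bach1 the ratio of Nfe2l2 was 2.01 (1.88 to 2.16) and 3.003 (2.85 to 3.17). The intervals of the libraries do not overlap for either pair, so Nfe2l2 reads were more numerous relative to reads of both repressors in the CKO-labelled library, whatever the scaling.

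The 12 genes listed as Nrf2 regulators, Keap1 and Bach1 among them, had a median log2 ratio of -0.04, which turned to 0.38 with equal totals. The background median was 0.022, or 0.44 with equal totals. Below 0 were 8 of the 12, beside 48.3% of the background genes. With equal totals 1 was below 0, where the lower quartile of the background genes was 0.085. At least 2-fold higher were 2 of the 12, or 16.7%, and at least 2-fold lower 0, beside 13.4% and 5.35% of the background genes. Maff, which encodes a small Maf partner, went from 35 to 612 reads, a log2 ratio of 3.51, and Nfe2l3, a relative of Nfe2l2, from 11 to 64 reads, 1.86 with an interval that starts at 1.02. The other small Maf genes, named after their values were seen, did not share this: Mafg was at -0.06 and Mafk at -0.01, or 0.35 and 0.41 with equal totals. Lowest were Sqstm1, which encodes the autophagy adaptor p62 that binds Keap1 and which had the most reads of this list (21618 and 21528), at -0.59, and Cul3, the scaffold of the Keap1 ligase, at -0.40. With equal totals these were at -0.17 and 0.02.

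Gclc and Gclm encode the catalytic and the modifier subunit of glutamate-cysteine ligase, the rate-limiting enzyme of glutathione synthesis. Gclc (Entrez Gene 14629; chr9:77754535-77794485, plus strand) had 8878 control reads and 9259 reads in the CKO-labelled library, or 6173 scaled, a log2 ratio of -0.52 with an interval from -0.57 to -0.48. Gclm (Entrez Gene 14630; chr3:122245557-122270732, plus strand) had 7014 and 6819 reads, or 4546 scaled, and was 0.648 times the control level (0.627 to 0.670). It was the lowest of the 10 genes, and 12.6% of the background genes lay below it. Gclm and Gclc thus stayed under 2-fold, and both were lower in the CKO-labelled library under equal totals as well. Their directions turned with the median of the proximal tubule markers set to 0, where Gclm was at 0.14 and Gclc at 0.24, and with the values as deposited Gclc turned to 0.06 and Gclm was at -0.04. Within a library, the ratio of Gclm to Gclc reads was 0.790 (0.766 to 0.815) in the control and 0.736 (0.714 to 0.760) in the CKO-labelled library, so the subunits moved nearly together, with a small difference beyond counting error. Exons of Gclm overlap the processed pseudogene Gm6061 on the same strand, which was counted with 458 and 680 reads, for a log2 ratio of -0.01, so how reads were divided between them is uncertain.

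The promoter of Gclm is shown because this gene had the lowest ratio. It comes from the RefSeq table on GRCm38.p6, chr3:122245307-122245556 on the plus strand, and ends at the base before the annotated gene. Searched on both strands were the antioxidant response element core TGACNNNGC and the metal response element cores TGCACNC and TGCGCNC, in the 250 bases before each start. Capitals mark the matches, which here include an antioxidant core 134 bases before the start, on the minus strand, that overlaps a metal core beginning 138 bases before it, and a further metal core at 72 bases.
Gclm: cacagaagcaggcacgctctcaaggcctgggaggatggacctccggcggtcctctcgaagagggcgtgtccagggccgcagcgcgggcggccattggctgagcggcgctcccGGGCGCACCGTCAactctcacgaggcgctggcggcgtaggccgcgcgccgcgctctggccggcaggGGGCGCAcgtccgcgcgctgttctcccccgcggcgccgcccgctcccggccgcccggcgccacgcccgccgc
Of 32851 promoter windows of the same length, 10.2% hold the antioxidant core and 21.4% a metal core. Of the 10 genes, 8 have a window in the table (Gclc and Gsr do not), and the antioxidant core was found for 5 of them: Nfe2l2, Gclm, Prdx1, Mt2 and Txnrd1, the last in 1 of 3 windows. The letters of that core are not in the windows of Nqo1, Srxn1 and Mt1. Other forms of the element, and elements beyond the 250 bases, were not searched for. The Srxn1 window holds TGAGTCAGC, with a G in place of the C of the core. A match is a description of the letters and not a binding site.

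Gsr (Entrez Gene 14782; chr8:33652523-33698163, plus strand) encodes glutathione reductase, which returns oxidised glutathione to its reduced form. It had 4724 control reads and 6162 reads in the CKO-labelled library, or 4108 scaled, and its log2 ratio of -0.20 (-0.26 to -0.15) became 0.22 with equal totals. Among 14 other glutathione genes, 13 were below 0, beside 48.3% of the background genes, and the median was -0.60. With equal totals 11 were below 0 and the median was -0.18. It was -0.01 with the values as deposited and turned to 0.17 with the median of the proximal tubule markers set to 0. At least 2-fold lower were 3, or 21.4%, and at least 2-fold higher 1, or 7.14%, beside 5.35% and 13.4% of the background genes; with equal totals 2 were lower and 1 higher, beside 2.50% and 21.7%. Ggct, which encodes gamma-glutamylcyclotransferase, went from 909 to 308 reads, a log2 ratio of -2.14. Ggt1, the brush-border gamma-glutamyltransferase that splits extracellular glutathione, went from 49199 to 24001 reads, a log2 ratio of -1.62. Gss, glutathione synthetase, named after its values were seen, was also past 2-fold, at -1.10. Gpx3, the secreted glutathione peroxidase, had the most reads of the list, 871229 in the control and 857202 in the CKO-labelled library, and a log2 ratio of -0.61. The gene past 2-fold upward was Chac1, a glutathione-degrading enzyme, with only 15 and 64 reads, for a log2 ratio of 1.45. Next was Glrx2, a mitochondrial glutaredoxin, at -0.36.

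Txnrd1 (Entrez Gene 50493; chr10:82833951-82897712, plus strand) encodes cytosolic thioredoxin reductase. Its 4410 control and 5779 CKO reads, 3853 scaled, gave a log2 ratio of -0.19 (-0.25 to -0.14), which was 0.22 with equal totals. Srxn1 (Entrez Gene 76650; chr2:152105516-152111376, plus strand), the sulfiredoxin that repairs over-oxidised peroxiredoxins, had 2069 and 3564 reads, 2376 scaled, and was the 1 target of the 7 above 0, at 0.20 (0.12 to 0.28). Prdx1 (Entrez Gene 18477; chr4:116685544-116700822, plus strand), a cytosolic peroxiredoxin that removes hydrogen peroxide, had the most reads of the 10 genes. Its control reads numbered 33254 and its CKO reads 35976, or 23984 scaled, and it was 0.721 times the control level (0.711 to 0.732). Its log2 ratio of -0.47 was -0.05 with equal totals and turned to 0.11 with the values as deposited and to 0.29 with the median of the proximal tubule markers set to 0. Prdx1 gave 53.5% of the reads of the 7 targets in the control library and 51.2% in the CKO-labelled library, so the summed level of the 7, 62188 reads in the control and 46869 scaled reads, mostly follows it.

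The Prdx1 promoter is shown beside that of Gclm because both genes were lower under the main scaling and hold the antioxidant core. Txnrd1 was also lower under that scaling and has a window with the core, but it is not shown. The Prdx1 stretch is chr4:116685349-116685543 on the plus strand of GRCm38.p6, ending before the first annotated exon in GENCODE M21. Capitals mark the core, on the minus strand, 133 bases before the RefSeq start.
Prdx1: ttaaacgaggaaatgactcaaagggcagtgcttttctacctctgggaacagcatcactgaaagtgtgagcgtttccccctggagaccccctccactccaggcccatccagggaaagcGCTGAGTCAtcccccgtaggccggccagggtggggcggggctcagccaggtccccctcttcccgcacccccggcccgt
No metal core is in this window.

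In the list of 12 other thioredoxin and peroxiredoxin genes, 0 passed 2-fold upward and 1, or 8.33%, downward, beside 13.4% and 5.35% of the background genes, and with equal totals 0 passed either way, beside 21.7% and 2.50%. The median of -0.14 turned to 0.28 with equal totals and was -0.45 over the genes that reached 1000 scaled reads. Prdx5, a peroxiredoxin of mitochondria and peroxisomes, had the most reads, 54294 and 37504, and was lowest at -1.12. The mitochondrial thioredoxin gene Txn2 followed at -0.70. Highest were the sestrin genes Sesn3 at 0.45 and Sesn2 at 0.42. The 4 genes of superoxide dismutases and catalase were below 0 under both scalings, beside 48.3% of the background genes under the main scaling. Among the genes that reached 1000 scaled reads, 65.9% were below 0. With equal totals the lower quartile of the background genes was 0.085. The median of the 4 genes was -0.99, or -0.57 with equal totals. Cytosolic Sod1, with 20341 and 14951 reads, was the 1 gene past 2-fold, at -1.03, beside 5.35% of the background genes (0 with equal totals, beside 2.50%), next to extracellular Sod3 at -0.997, Cat, which had the most reads (33909 and 25730), at -0.98, and mitochondrial Sod2 at -0.70.

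Nqo1 (Entrez Gene 18104; chr8:107388225-107403206, minus strand), the quinone reductase often used as a readout of Nrf2, had 1839 control reads and 2745 reads in the CKO-labelled library, 1830 scaled. A difference was not detectable under the main scaling: the log2 ratio was -0.01 with an interval from -0.09 to 0.08, and it was 0.41 with equal totals. The ratio of Nqo1 to Nfe2l2 reads, free of scaling, was 0.724 (0.681 to 0.769) in the control library and 0.487 (0.465 to 0.510) in the CKO-labelled library. Nqo1 reads were therefore fewer relative to those of Nfe2l2 in the second library.

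**Figure D3:**
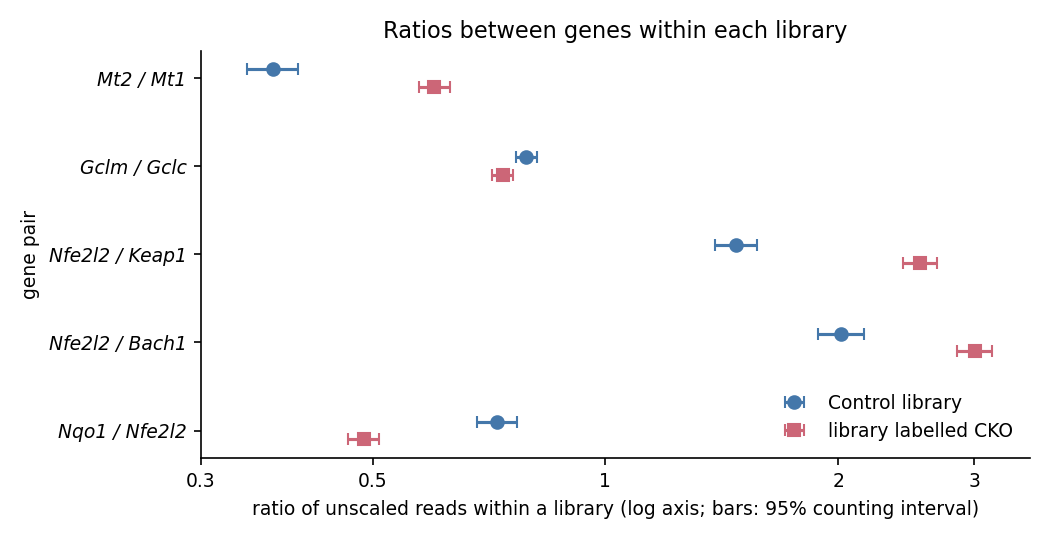
Ratio of unscaled reads between 2 genes of the same library, on a log axis, for the control library (circles) and the CKO-labelled library (squares), with 95% counting intervals. The bars of the libraries are apart for each of the 5 pairs; Mt2 over Mt1 and Nfe2l2 over Keap1 and Bach1 lie further right in the CKO-labelled library, Gclm over Gclc and Nqo1 over Nfe2l2 further left.

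Of 23 other Nrf2 target genes, 22 were in the table (Gpx2 was not listed). At least 2-fold higher were 4, or 18.2%, and at least 2-fold lower 1, or 4.55%, beside the 13.4% and 5.35% of the background. With equal totals 7 were at least 2-fold higher and 1 lower, beside 21.7% and 2.50% of the same background genes. Their median was -0.29, and 0.13 with equal totals. Akr1b8, an aldo-keto reductase, went from 114 to 788 reads, a log2 ratio of 2.19, and Abcc4, an efflux transporter, from 812 to 4185 reads, 1.78. The other 2 past 2-fold, named after their values were seen, were Ephx1, microsomal epoxide hydrolase, at 1.55 and Cbr3, a carbonyl reductase, at 1.14. Me1, the cytosolic malic enzyme that supplies NADPH, had 23493 and 12637 reads and the lowest log2 ratio, -1.48, followed by Htatip2 at -0.91. Fth1, the ferritin heavy chain, had the most reads, 131938 and 113587, and was at -0.80. Hmox1, heme oxygenase 1, a target of Nrf2 that Bach1 represses, had 1213 and 1483 reads, for a log2 ratio of -0.29, with an interval from -0.41 to -0.18, that turned to 0.12 with equal totals. Slc7a11, the cystine transporter subunit, had only 14 and 34 reads, and its interval, from -0.24 to 1.71 around 0.66, spans 0. Of the 22 genes, 9 were above 0 and 13 below 0, beside 48.3% of the background genes below 0. Among the 6417 well-expressed genes given earlier, 65.9% were below 0. With equal totals 9 of the 22 were below 0, where the lower quartile of the background genes was 0.085. Under the main scaling the shares past 2-fold were near the background.

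**Figure D4:**
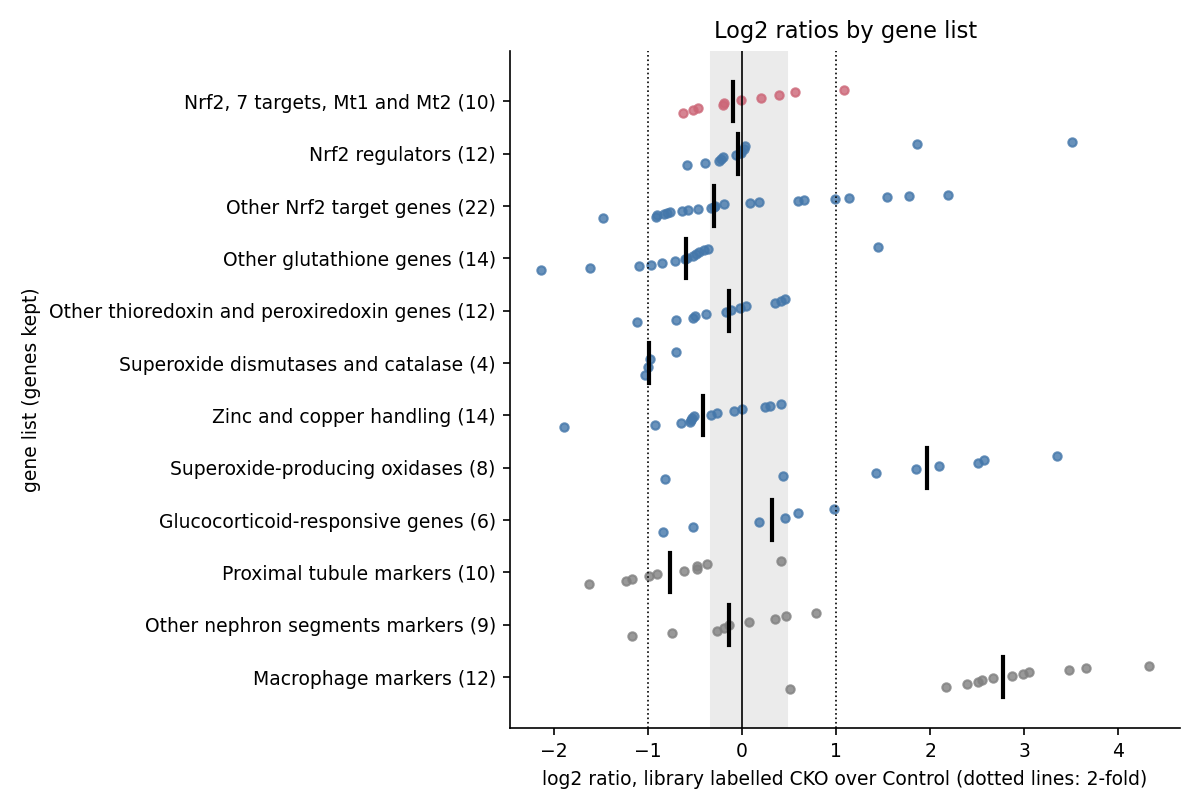
Log2 ratio of each kept gene, 1 point per gene, by list, with the number of genes kept in brackets and a black bar at the median; the grey band holds the middle of the background genes and dotted lines mark 2-fold. The 10 genes, in the top line, run from -0.63 to 1.09, the superoxide dismutases and catalase lie at or below -0.70, and the oxidase and macrophage lists have medians of 1.97 and 2.77; with equal totals the points of well-read genes would lie about 0.42 further right.

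Mt1 and Mt2 lie side by side on chromosome 8 in the same orientation, with 5513 bases between the end of Mt2 and the start of Mt1. Mt2 (Entrez Gene 17750; chr8:94172664-94173568) had 909 control reads and 2895 reads in the CKO-labelled library, or 1930 scaled, and was 2.12-fold higher with an interval of 1.97 to 2.29. The lower bound is under 2-fold, so counting error alone leaves the side of the threshold unsettled. Of the background genes, 87.8% had a lower log2 ratio. Mt1 (Entrez Gene 17748; chr8:94179082-94180327) had 2449 and 4821 reads, or 3214 scaled, and was 1.31-fold higher (1.25 to 1.38), a log2 ratio of 0.39. Both metallothionein genes were higher in the CKO-labelled library under each of the alternatives run, and Mt2 by more than Mt1. Mt1 was at 0.81 with equal totals and at 0.97 with the values as deposited. It passed 2-fold, at 1.16, with the median of the proximal tubule markers set to 0. The ratio of Mt2 to Mt1 reads was 0.371 (0.344 to 0.401) in the control library and 0.600 (0.573 to 0.629) in the CKO-labelled library, a gap beyond counting error that no scaling factor changes. An antisense transcript, Gm45774, overlaps exons of Mt2 and was not listed; the kit keeps strand, but the strand setting of the counting is not given in the sources used here.

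The promoters of this pair are shown because the neighbours moved in the same direction by different amounts. Both are on the plus strand of GRCm38.p6, for Mt2 at chr8:94172368-94172617, inside an exon of Gm45774 on the other strand, and for Mt1 at chr8:94178839-94179081, ending before the first annotated exon. Capitals mark both kinds of core. For Mt2 these are metal cores 223, 128 and 50 bases before the RefSeq start and an antioxidant core at 79 bases, and for Mt1 a metal core at 23 bases. Only the stretch before the annotated start was searched, so cores after it, or near another start, were not counted. The number of cores per gene therefore depends on the start used. A link between cores and ratios was not tested.
Mt2: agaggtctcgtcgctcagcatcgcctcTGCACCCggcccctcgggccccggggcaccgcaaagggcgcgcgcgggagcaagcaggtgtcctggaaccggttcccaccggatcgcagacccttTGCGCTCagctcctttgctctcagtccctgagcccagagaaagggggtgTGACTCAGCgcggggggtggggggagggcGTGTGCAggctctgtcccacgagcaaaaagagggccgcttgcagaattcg
Mt1: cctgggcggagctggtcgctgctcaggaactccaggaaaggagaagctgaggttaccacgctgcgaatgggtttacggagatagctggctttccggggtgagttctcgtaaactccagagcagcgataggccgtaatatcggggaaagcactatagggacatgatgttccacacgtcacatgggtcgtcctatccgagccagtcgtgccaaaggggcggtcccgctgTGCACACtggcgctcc
Of the 32851 windows, 1.26% hold 3 or more metal cores. A metal core was found for 4 of the 8 genes with a window (Mt1, Mt2, Gclm and Srxn1), beside 21.4% of all windows.

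Of 17 other genes of zinc and copper handling, 14 were in the table (Mt4, Slc30a10 and Slc39a4 were not). Of the 14, 0 passed 2-fold upward and 1, or 7.14%, downward, beside 13.4% and 5.35% of the background genes. The median was -0.42, or -0.0013 with equal totals. It turned to 0.20 with the values as deposited and to 0.34 with the median of the proximal tubule markers set to 0. Mtf1, the zinc-sensing factor that drives metallothionein genes, had 992 and 1400 reads, for a log2 ratio of -0.09, with an interval from -0.21 to 0.03. With equal totals the Mtf1 ratio was 0.33. Slc30a1, a zinc exporter that is also a target of Mtf1, had 3192 and 3811 reads, for a log2 ratio of -0.33, which turned to 0.09 with equal totals. Exons of both overlap a gene on the opposite strand. Mt3, the brain metallothionein, was the gene past 2-fold, at -1.89, but on 20 and 7 reads. Next lowest was the zinc importer Slc39a8 at -0.92, and highest were the copper pump Atp7a at 0.41 and the zinc importer Slc39a1 at 0.30, near the 0.39 of Mt1. The copper importer Slc31a1 had the most reads, 7863 and 8126, and was at -0.54. Metallothionein genes also respond to glucocorticoids, and of 6 glucocorticoid-responsive genes 0 passed 2-fold in either direction, beside 13.4% and 5.35% of the background genes. With equal totals 2 of the 6 were at least 2-fold higher, Per1 at 1.39 and Sgk1 at 1.01, beside 21.7% of the background genes under that scaling, and the median was 0.74. Under the main scaling their median was 0.32, or 0.17 over the genes that reached 1000 scaled reads, with Per1 at 0.98 and Sgk1 at 0.59 highest, and Fkbp5 at -0.52 and Klf9, with the most reads (7188 and 6021), at -0.84 lowest.

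Per kilobase of the longest coding transcript in the GENCODE M21 basic set, Prdx1 had the highest level in the control library, with 14496 reads per kilobase. Gclc followed with 2594, Mt1 with 2257, Mt2 with 1779 and Gsr with 1767. Of these neighbours, Mt2 and Gsr did not differ beyond their 95% Poisson intervals. Gclm, Txnrd1 and Nqo1, at 1255, 1218 and 1184, formed a run of neighbours that overlapped, and Nfe2l2 at 1026 and Srxn1 at 736 were lowest. In the CKO-labelled library the scaled levels put Mt2 in rank 2, with 3777 reads per kilobase, and Mt1 in rank 3, with 2962. Gclm, at 813, had become the lowest, level with Srxn1 at 845 within counting error. The metallothionein levels rest on short transcripts of 511 bases for Mt2 and 1085 for Mt1, so a shorter main transcript of Mt1 would raise its level per length.

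Of 8 listed oxidase genes, 6 passed 2-fold upward and 0 downward, beside 13.4% and 5.35% of the background genes, with a median of 1.97. This median rests on genes with few control reads: it was 0.44 over the genes that reached 1000 scaled reads and 1.51 without a floor, and the summed reads of the list were 20354 in the control and 21619 scaled in the CKO-labelled library, a log2 ratio of 0.09. Ncf1 and Cybb, subunits of the phagocyte NADPH oxidase, went from 33 to 519 and from 154 to 1387 reads, log2 ratios of 3.35 and 2.58. Cyba, a membrane subunit shared with other oxidases, had the most reads in the control library, 10474 and 8921, and was lowest, at -0.82. Nox4, an oxidase abundant in renal tubules, had the most reads in the CKO-labelled library, 8954 and 18215, and was next lowest, at 0.44.

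Markers of cell types moved as well. Of 10 proximal tubule markers, 9 were below 0 and 3 of them past 2-fold, beside 48.3% and 5.35% of the background genes, with a median of -0.76. Their summed level was 634514 reads in the control library and 337158 scaled reads in the CKO-labelled library, and Slc27a2 had the most reads (157696 and 100638). With equal totals the median was -0.35, with 8 below 0 and 1 past 2-fold, beside 2.50% of the background genes. All 12 macrophage markers were above 0 and 11 at least 2-fold higher, beside 13.4% of the background genes, and their sum went from 4033 to 18521 scaled reads. Csf1r had the most reads of that list in the control library (2244 and 4803) and Lyz2 in the CKO-labelled library (518 and 9836). The 9 markers of other nephron segments summed to 146407 and 180547 scaled reads, with Umod most abundant (90047 and 187056) and a median of -0.14 that turned to 0.28 with equal totals. Endothelial markers, 4 of 4 listed and with Kdr most abundant in the control library (2528 and 2390 reads), summed to 7231 and 6257 with a median of -0.11, or 0.31 with equal totals. Erythroid genes, 5 of 5 and led by Hbb-bs (6084 and 9054 reads), summed to 14521 and 14430 with a median of -0.01, or 0.41 with equal totals. Of 8 neutrophil markers 3 were listed, with summed levels of 36 and 60 scaled reads, and 2 were above 0 and 1 below. Ltf was most abundant in the control library (16 and 7 reads, a log2 ratio of -1.58). S100a9 was most abundant in the CKO-labelled library (13 and 64 reads, 1.64). Ly6g, Camp, Ngp, Cxcr2 and Mpo were not listed. Of 5 lymphocyte markers only Cd3e was listed (6 and 33 reads), of 4 adrenal markers only Star (37 and 70 reads), and of 3 adipocyte markers 0. The part of these shifts in the ratios of the 10 genes was not tested.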

How the data were processed

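The authors deposited whole numbers, called normalized counts, in no standard unit, taken here as a score. The submitters' processing notes name STAR 2.7.3a, HTSeq, DESeq2, edgeR, FastQC, Cufflinks 2.2.1 and the build mm10, which is GRCm38. Each column's floor (its minimum minus 1) was subtracted, which takes the values as reads plus a constant, an inference from the columns. CKO reads were multiplied by the median gene ratio, 0.667. A pseudocount of 1, a filter of 10 scaled reads in 1 library and a threshold of 2-fold were used. No test between groups was possible with 1 library each. Ratios carry 95% Clopper-Pearson intervals and levels Poisson intervals, for counting error only, and rest on the remainders being reads. The members and lists were chosen with earlier results of these data known. Named were the 10 members, 6 genes for their roles, in each pathway list the 2 highest, the 2 lowest and the gene with the most reads, in each marker list the gene with the most reads, Zc3h12b and Havcr1. Alternatives were other pseudocounts, filters, thresholds, floors and scalings. The steps were run on simulated data that had the floors and the factor built in, with as many genes raised as lowered. This checks the code only. It cannot check whether the floors or the scaling hold for these data. Python 3.11.15, numpy 2.4.6, pandas 2.3.3, scipy 1.17.1 and matplotlib 3.10.9 were used.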

Additional observations from a re-analysis of the deposited data

How the results depend on the processing

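No paired analysis was possible because there was 1 library per group. Under the main setting 1 member was at least 2-fold higher and 0 lower, with 2334 background genes higher and 934 lower (71.4% of these higher). A threshold of 1.5-fold gave 1 member lower and 3801 and 2423 genes, and 4-fold gave 0 members higher and 749 and 166 genes, as the thresholds bring about. With at least 50 scaled reads 617 genes were lower, and with at least 1000, chosen after seeing the data, 259 were higher and 323 lower (44.5% higher), from fewer genes. Equal totals gave 3870 and 437 genes (89.9% higher) and a member median of 0.32. Equal totals without genes over 0.5% of reads gave 525 lower genes (86.4% higher) and a member median of 0.20. The median of the proximal tubule markers set to 0 gave 3 members higher (Mt2, Nfe2l2 and Mt1), 6476 and 251 genes (96.3% higher) and a member median of 0.66. The values as deposited gave 2 members higher (Mt2 and Nfe2l2), 3574 and 131 genes (96.5% higher) and a member median of 0.48. Without a floor but scaled, 1196 and 463 genes passed, since the constants draw low genes together. The member median, -0.10 under the main setting, thus changed sign under 4 scalings.

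Log2 ratios of 3 members (Gsr, Nqo1 and Txnrd1) changed sign with equal totals, 5 with the values as deposited (these, Gclc and Prdx1) and 6 with the tubule markers at 0 (these and Gclm); Nqo1 also did so with equal upper quartiles and without a floor. Mt2, Nfe2l2, Mt1 and Srxn1 kept their direction under each alternative run, Mt2 between 1.06 and 1.85. Apart from the scaling factor itself, the cause was not tested. Of the values of single genes and lists, 258 were counted as unchanged and 119 as moved. For single genes, moved means beyond the counting interval, and no counting interval is given for list medians. The 258 include single-gene ratios under the filter settings, which a filter cannot change, so this count does not measure stability. Genes with few reads, such as Slc7a11, Mt3 and Chac1, have wide intervals, and the factor rests on the floors, which were not checked against raw reads.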
